A study of Mus musculus with 8 samples.

Results

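Claudins are membrane proteins of the tight junction, the seal between neighbouring epithelial cells. Some claudins form a channel through that seal for sodium, calcium, magnesium, chloride or water, and others close it. In the kidney each tubule segment makes its own set, which fixes what passes between the cells there. The genes described here are the 10 rows of the deposited table named Cldn1, Cldn2, Cldn3, Cldn4, Cldn7, Cldn8, Cldn10, Cldn14, Cldn16 and Cldn19, out of 35275 genes. They were chosen by name and not by a rule on their values, though with earlier results of these data known. The place of each in the nephron is textbook background, since whole kidney RNA does not show it.

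The libraries came from whole left kidneys of male C57BL/6J mice aged 40 weeks, 4 homozygous for a deletion in C1qtnf1 (Ctrp1-/-, KO) and 4 wild-type littermates (WT). C1qtnf1 encodes the secreted protein CTRP1. From 6 weeks of age every mouse was kept on high-fat chow, in which fat supplied 60% of the kcal. The deletion removed 679 bp at exon 4, was made in 129S5/Sv embryonic stem cells and was crossed to C57BL/6J for more than 6 generations. KO mice carry it in every tissue from conception. Poly-A RNA was sequenced with 1 library per mouse. The labels tie no KO mouse to a WT mouse and do not say which mice shared a litter.

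The 8 libraries held 17884140 to 20344859 reads. C1qtnf1 averaged 5.42 ± 0.141 FPKM over the WT mice (SD, n = 4) and 0.61 ± 0.23 over the KO mice. Its log2 fold change had a 95% interval from -2.24 to -1.76 (limma adjusted p = 2.3e-05). FPKM is a read count scaled to gene length and to the size of the library. In the fit over 12118 genes with a mean of at least 1 FPKM, 2 genes were called higher in KO (0.0165%) and 3 lower, the target among them (0.0248%), or 0.0413% in all. KO replicate 2 stood apart from the other 7 libraries. Its FPKM summed to 525275 against 437496 to 450339 in the others, and limma's array weights gave it 0.1. Differences between the groups in the claudins and in their ratios are therefore given with and without that mouse. Those against other marker lists, tried after the data were seen, are given over all 8 mice only.

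Sequence before the annotated starts is shown for 4 members, Cldn2 and Cldn10 as the most abundant and Cldn3 and Cldn4 as those with the largest positive differences. RefSeq (GRCm38.p6) listed 14 starts for 9 of the 10 claudins. Each line is 30 bases on the strand of the gene, 5′ to 3′, and the capitals mark the motif. The motifs searched on both strands, from 250 bases before to 50 after a start, were the TATA box as TATAAA, the GC box of Sp1 factors as GGGCGG, and the core of HNF1 sites, read as GTTAAT. Matches of different motifs may overlap.
Cldn2 (chrX:139800761-139800790, + strand, TATA box): gacagggaaaaaTATAAAacccaccaaacg
Cldn10, upstream start (chr14:118787841-118787870, + strand, GTTAAT on the other strand): aacaggaaattaagcATTAACtatgctgct
Cldn10, downstream start (chr14:118854899-118854928, + strand, GC box): ggcggtgaccggGGGCGGagcctcggggct
Cldn3 (chr5:134985966-134985995, + strand, GC box on the other strand): gcttagacgaccCCGCCCtccttcgataca
Cldn4 (chr5:134946961-134946990, - strand, GC box on the other strand): ctccctctgcctCCGCCCctcctctaggag

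The TATA box letters were found at 1 of the 14 claudin starts, that of Cldn2, and in 13.6% of all 32851 RefSeq windows of this length. The GC box was at 7 of the 14 starts, in 6 claudins, and in 35.7% of all windows. GTTAAT was at 3 of 14 starts (Cldn1, Cldn10 and Cldn14) and in 7.1% of all windows. A match is a description of letters and not a site. The pair of Cldn10 windows is shown because that gene has alternative first exons, used in different segments, and the value per gene adds them up.

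None of the 9 claudins tested was called in KO against WT by limma, with 0 higher and 0 lower, beside the 0.0165% and 0.0248% of all genes tested. The tenth, Cldn14, was too low to be tested. At an unadjusted p under 0.05 there were 2 of 9, Cldn4 and Cldn1, where 5.95% of all genes tested were. Of the 9 log2 fold changes 5 were above 0 and 4 below, with a median of 0.08, and over all genes tested 47.2% were above 0 with a median of -0.01. Cldn4 stood highest at 0.57 and Cldn1 lowest at -0.33. Without KO replicate 2 the number called was again 0.

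**Figure D1:**
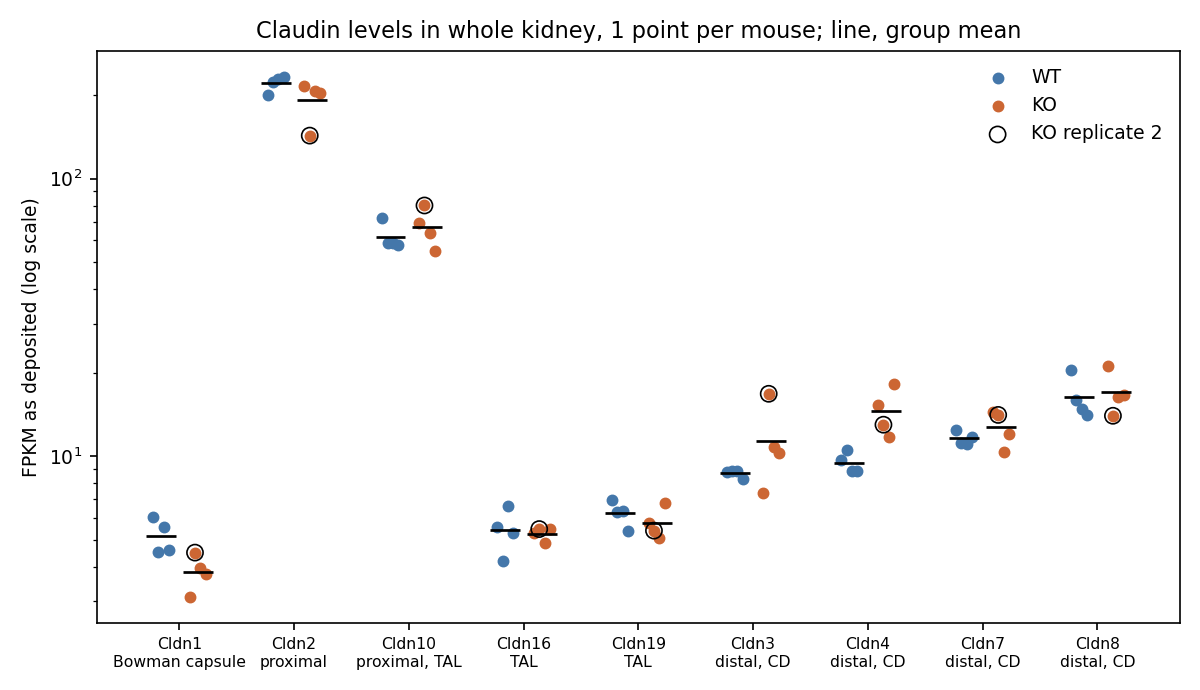
FPKM as deposited (log axis) of 9 claudins in each mouse, WT in blue and KO in orange, with the group mean as a line, KO replicate 2 ringed and the known segment under each name (TAL, thick ascending limb; CD, collecting duct). Cldn14, at 0 in every WT mouse, is not drawn; Cldn2 lies from 143 to 233 FPKM, above all others, and the 4 KO values of Cldn4 lie above its 4 WT values.

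Levels per gene length spanned from Cldn2 at 222 ± 14.3 FPKM in WT to Cldn14 at 0. Cldn2 made up 64.0 ± 3.67% of the summed FPKM of the 10 genes in WT and Cldn10 17.8 ± 2.14%. The other 8 together held the remainder, each with a WT mean under 5%. In WT the order by mean FPKM was Cldn2, Cldn10, Cldn8, Cldn7, Cldn4, Cldn3, Cldn19, Cldn16, Cldn1 and Cldn14. The ranges over the 4 WT mice overlapped for the neighbours Cldn4 and Cldn3, Cldn19 and Cldn16, and Cldn16 and Cldn1, so these are not separated beyond their spread between mice. Within each of the 4 WT mice Cldn4 was nonetheless above Cldn3. In KO the order differed in that Cldn4 stood before Cldn7. There the ranges of Cldn8, Cldn4, Cldn7 and Cldn3 overlapped from each to the next, as did those of Cldn19 and Cldn16. The sum of the 10 was 347 ± 3.27 FPKM in WT and 330 ± 25.4 FPKM in KO, where KO replicate 2 had 296.

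Cldn1 is the claudin of the parietal cells that line Bowman's capsule around the glomerulus, and is also made in other epithelia. The gene covers bases 26356642 to 26371841 of chromosome 16 (mm10, as for all positions here). Its levels in WT replicates 1 to 4 were 6.04, 4.51, 5.58 and 4.59 FPKM, and in KO replicates 1 to 4 they were 3.12, 4.5, 3.96 and 3.78 FPKM. All 4 KO values were below the WT values as deposited, with WT replicate 2 and KO replicate 2 almost level, and after scaling the groups overlapped. On the deposited scale 5.3% of all genes tested had groups without overlap, 2.29% with KO higher and 3.01% with KO lower. After scaling these shares were 5.16%, 2.33% and 2.83%. A log2 fold change of -0.33 ± 0.13 (SE) resulted, with a 95% interval from -0.61 to -0.05 (limma adjusted p = 0.78). Without KO replicate 2 it was -0.42 (limma adjusted p = 0.19).

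Podocyte markers, which stand here for the glomerulus because no list of parietal cell markers was set, summed to 108 to 113 FPKM in WT and 79.6 to 121 FPKM in KO. Less the mean of these markers, Cldn1 was at -1.96 ± 0.19 in WT and -2.28 ± 0.39 in KO on the log2 scale. That difference of -0.32 did not pass (exact permutation test, two-sided, p = 0.20, adjusted over 9 such values p = 0.60), and was -0.50 without KO replicate 2. In bulk RNA fewer cells of a type and less RNA per cell cannot be told apart.

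Cldn2 forms the channel through which the proximal tubule and the thin descending limb pass sodium and water between cells. It lies on chromosome X from 139800828 to 139811386. WT mice had 201, 224, 229 and 233 FPKM and KO mice 216, 143, 207 and 203 FPKM. KO replicate 2 was the lowest, and the other 3 KO values lay within the WT range. The log2 fold change was -0.20 ± 0.12 (limma adjusted p = 0.86) and its 95% interval went from -0.48 to 0.08. Leaving out KO replicate 2 brought the difference to -0.09, and the KO mean was then 209 ± 6.82 FPKM (SD, n = 3). With 8006 to 14442 reads per library, counting error was about 1% of the level, while the SD between KO mice was 17.3% of it.

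The mean over proximal tubule markers was lower in the same mouse, though not every marker was. Over 7 of them (Slc34a1, Slc5a2, Slc5a12, Lrp2, Cubn, Slc22a6 and Slc7a13) KO replicate 2 differed from the WT mean by -0.46 on the log2 scale, and the remaining KO mice by -0.08 to -0.04. In KO replicate 2 Slc7a13 had 307 FPKM (WT 241 to 299) and Slc22a6 405 FPKM (WT 337 to 403). The other markers of the list lay below their WT range as deposited, among them Lrp2 at 83.5 FPKM (WT 188 to 217) and Cubn at 23.2 FPKM (WT 49.2 to 51.4). Less these markers, Cldn2 was at -0.27 ± 0.08 in WT and -0.32 ± 0.02 in KO, KO replicate 2 alone being at -0.34 and the rest of KO from -0.33 to -0.29. The difference of -0.05, or -0.04 without KO replicate 2, did not pass (exact permutation p = 0.31, adjusted p = 0.63). Measured against the mean of this uneven list, Cldn2 in KO replicate 2 thus lay beside the other KO values.

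Cldn10 has a form that passes anions in the proximal tubule and another that passes sodium in the thick ascending limb. The gene lies on chromosome 14 from 118787908 to 118875489, and RefSeq lists both an upstream and a downstream start for it (shown above). WT mice had 72.1, 58.7, 58.5 and 57.7 FPKM and KO mice 69.5, 80.1, 63.5 and 55.1 FPKM. The groups overlapped, with KO replicate 2 highest and KO replicate 4 lowest of all 8. The log2 fold change was 0.13 ± 0.13 (limma adjusted p = 0.87; 95% interval from -0.16 to 0.42), and 0.01 without KO replicate 2.

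The level of Cldn10 in KO replicate 2 went against the markers of both its segments. Thick ascending limb markers (Umod, Slc12a1, Kcnj1, Ptger3 and Casr) differed from the WT mean by -0.56 there, against -0.20 to -0.04 for the rest of KO. Less these markers, Cldn10 reached 0.79 in KO replicate 2, while the rest of KO lay between -0.22 and -0.04 and WT between -0.35 and -0.21. The mean difference of 0.35 did not pass (exact permutation p = 0.057, adjusted p = 0.26) and was 0.11 without that mouse. Which of the forms of Cldn10 was present cannot be read from values per gene.

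Cldn16 and Cldn19 act together in the thick ascending limb, where loss of either wastes calcium and magnesium in the urine. Cldn16 lies on chromosome 16 from 26463135 to 26482765, and Cldn19 on chromosome 4 from 119255414 to 119262438. For Cldn16 the WT mice had 5.55, 4.19, 6.61 and 5.28 FPKM and the KO mice 5.29, 5.47, 4.86 and 5.47 FPKM. The KO values lay inside the WT range. For Cldn19 the WT mice had 6.95, 6.32, 6.33 and 5.38 FPKM and the KO mice 5.73, 5.4, 5.1 and 6.79 FPKM, with overlap.

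The log2 fold change of Cldn16 was 0.00 ± 0.12 (limma adjusted p = 1.0; 95% interval from -0.27 to 0.27). That of Cldn19 was -0.08 ± 0.10 (limma adjusted p = 0.88; 95% interval from -0.31 to 0.14). Without KO replicate 2 they were -0.04 for Cldn16 and -0.08 for Cldn19. Cldn16 had 91 to 149 reads per library, the fewest of the 9, and its counting error of 8.96% in WT compares with an SD between WT mice of 18.4%. In KO its SD was 5.47%, below the counting error of 9.3%. Cldn19 shares 90 exon bases with Gm12927, annotated on the opposite strand, whose reads cannot be separated from its own.

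Cldn14 blocks the Cldn16 and Cldn19 pore and is kept low in the kidney unless blood calcium is high. It spans 93919031 to 94008837 on chromosome 16. It had 0 reads in each of the 4 WT libraries, and 3, 2, 0 and 2 reads in KO replicates 1 to 4. Over the WT group a count of 0 allows up to 3 reads, a mean of 0.0263 FPKM. With 7 reads in KO against 0 in WT, the 95% interval of the ratio (exact binomial) starts at 1.51, for counting error only. With no filter on low values the gene did not pass (limma adjusted p = 0.81).

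The distal convoluted tubule and collecting duct make Cldn3, Cldn4, Cldn7 and Cldn8. Cldn4 and Cldn8 act together there on chloride passage, Cldn3 seals, and Cldn7 also lies along the side walls of cells. Cldn3 and Cldn4 are neighbours on chromosome 5, 39.3 kb apart with no annotated gene between them. Cldn7 is on chromosome 11, 48.5 Mb from C1qtnf1.

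Cldn4 spans 134945119 to 134946934. WT mice had 9.7, 10.5, 8.89 and 8.86 FPKM and KO mice 15.3, 13, 11.7 and 18.2 FPKM. The groups did not overlap, with KO replicate 4 highest and KO replicate 3 nearest to WT. As given above, 2.33% of all genes tested had KO above WT without overlap after scaling. The log2 fold change was 0.57 ± 0.12, or 1.49-fold on the scale tested, with a 95% interval from 0.30 to 0.84. It did not pass over all genes (limma adjusted p = 0.28), where its unadjusted p ranked 34th from the lowest. Whichever mouse was left out, the difference stayed between 0.48 and 0.67 and the adjusted p between 0.081 (without KO replicate 3) and 0.83 (without WT replicate 3). Without KO replicate 2 it was 0.59.

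Cldn3 did not follow its neighbour from mouse to mouse. It spans 134986214 to 134987472, and 40 of its exon bases are shared with Wbscr25 on the opposite strand. WT mice had 8.81, 8.88, 8.84 and 8.28 FPKM and KO mice 7.37, 16.8, 10.8 and 10.3 FPKM. KO replicate 2 was highest of all 8 and KO replicate 1 lowest. The log2 fold change of 0.31 ± 0.21 (limma adjusted p = 0.86; 95% interval from -0.14 to 0.77) came down to 0.09 without KO replicate 2.

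Cldn7, on chromosome 11 from 69964779 to 69967885, was at 12.4, 11.2, 11.1 and 11.7 FPKM in WT and 14.5, 14.1, 10.4 and 12 FPKM in KO. The KO values lay on both sides of the WT range. Cldn8, on chromosome 16 from 88560828 to 88563183, was at 20.4, 15.9, 14.8 and 14.1 FPKM in WT and 21.2, 14, 16.4 and 16.6 FPKM in KO. In both groups replicate 1 had the highest value of Cldn8. The replicate numbers follow the order of deposit and do not show whether mice shared a litter. The log2 fold changes were 0.14 ± 0.11 for Cldn7 (limma adjusted p = 0.86, 95% interval from -0.11 to 0.38) and 0.08 ± 0.12 for Cldn8 (limma adjusted p = 0.90, 95% interval from -0.19 to 0.35). Without KO replicate 2 they were 0.06 and 0.14.

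**Figure D2:**
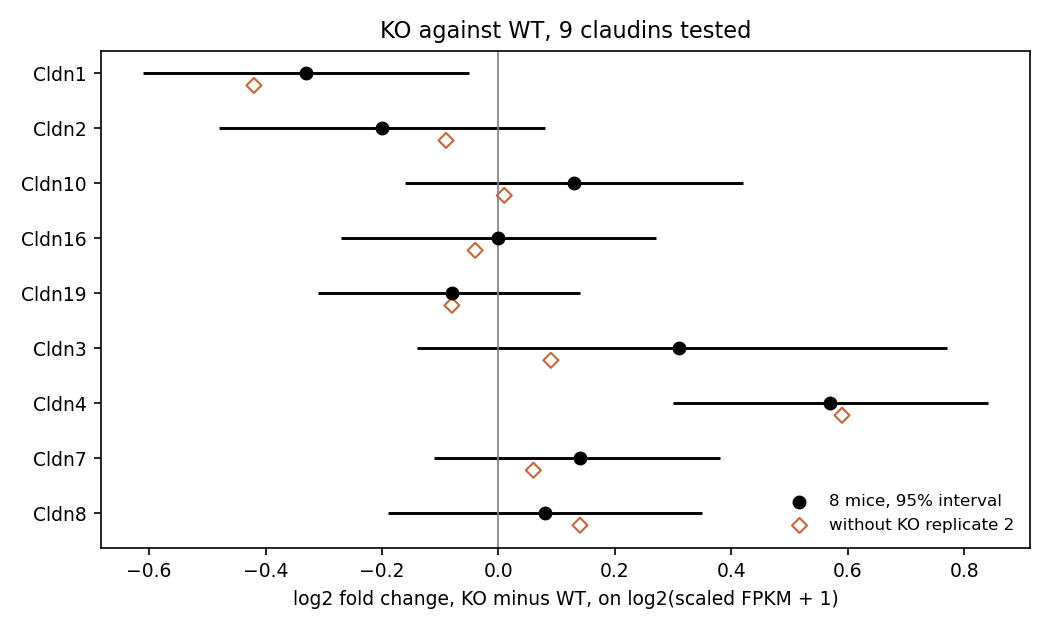
Log2 fold change, KO minus WT, of the 9 claudins tested with the 95% interval over 8 mice (points and lines) and the value without KO replicate 2 (open diamonds). The intervals of Cldn4 (0.30 to 0.84) and Cldn1 (-0.61 to -0.05) do not hold 0, and neither gene passed after adjustment over all genes; Cldn3 moves from 0.31 to 0.09 without KO replicate 2.

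Cldn4 differed between the groups in the same direction as some marker lists. Urothelium, the lining of the renal pelvis, also makes Cldn4. Its 6 markers (Upk1a, Upk1b, Upk2, Upk3a, Psca and Krt5) summed to 3.33 to 8.73 FPKM in WT and 13.3 to 31.2 FPKM in KO, with no overlap and none at 0. The 7 principal cell markers (Aqp2, Aqp3, Fxyd4, Avpr2, Scnn1b, Scnn1g and Hsd11b2) summed to 356 to 483 FPKM in WT and 436 to 590 FPKM in KO, with overlap. Most of that difference in FPKM was in Aqp2, the water channel of these cells. It averaged 203 ± 35.1 FPKM in WT against 313 ± 61.8 in KO (limma adjusted p = 0.57). Fxyd4 and Hsd11b2 had log2 fold changes of 0.38 and 0.18 (limma adjusted p = 0.82 and 0.86). Those of Aqp3, Scnn1b and Scnn1g were -0.03, 0.07 and 0.01. Of the 6 urothelium markers 5 were tested and of the 7 principal cell markers 6, and none passed over all genes. Their part in the Cldn4 difference was not tested.

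Per mouse, the urothelium list differed from the WT mean by 1.65, 0.91, 0.73 and 1.33 on the log2 scale in KO replicates 1 to 4, and Cldn4 by 0.62, 0.52, 0.28 and 0.87. KO replicates 1 and 4 were the higher pair in both, and KO replicate 3 the lowest. The principal cell list was at 0.22, 0.38, 0.06 and 0.16 in the same mice. The mean over immediate early and heat shock genes, a sign of handling or stress, was at 0.79, 1.54, 0.58 and 0.71 in KO. In WT it was at -0.23 to 0.13. Its members differed between mice. Fos had 7.79 FPKM in KO replicate 2 but 0.822 in KO replicate 1, where WT had 0.692 to 1.23. Hspa1b had 56.7 FPKM in KO replicate 1 but 10.8 in KO replicate 2, where WT had 7.24 to 12.7. The part of these genes was not tested either.

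**Figure D3:**
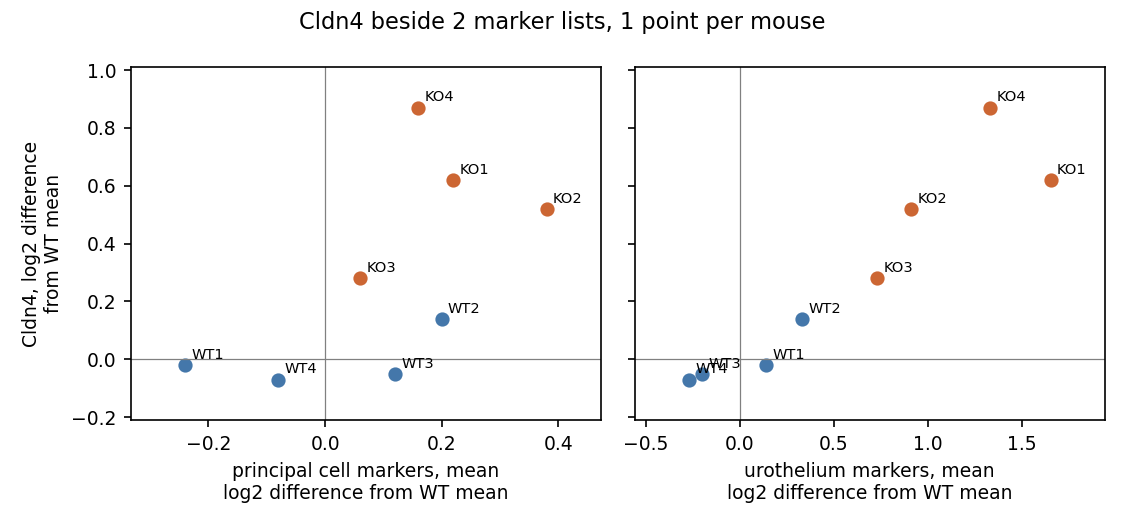
Cldn4 in each mouse (vertical axis, log2 difference from the WT mean) against the mean of the principal cell and urothelium marker lists (horizontal axes, log2 difference from the WT mean), WT in blue and KO in orange. KO lies above WT in Cldn4, and along the urothelium axis the KO mice sit at 0.73 to 1.65 and the WT mice at -0.27 to 0.33.

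Less the principal cell markers, Cldn4 was at -1.75, -2.02, -2.13 and -1.95 in WT and -1.56, -1.81, -1.74 and -1.26 in KO on the log2 scale. KO replicate 2 lay below WT replicate 1, so the groups overlapped. The difference of 0.37 did not pass (exact permutation p = 0.057, adjusted p = 0.26), and was 0.44 without KO replicate 2. Less the urothelium markers the difference was -0.58, the urothelium markers differing more than Cldn4. For Cldn3, Cldn7 and Cldn8 the differences relative to principal cell markers were 0.11, -0.07 and -0.12 (exact permutation adjusted p = 0.63 for each), and -0.06, -0.08 and -0.01 without KO replicate 2.

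Cldn16 and Cldn19 relative to thick ascending limb markers differed by 0.21 and 0.13 (exact permutation adjusted p = 0.63 for both), and by 0.06 and 0.02 without KO replicate 2. In KO replicate 2 they were at -2.87 and -2.89, the highest of the 8 mice for each, while their own levels of 5.47 and 5.4 FPKM lay within the range of WT. The marker mean in that mouse was uneven, with Casr far below WT and Ptger3 close to it, as given above. Of the 9 claudins compared with their segments 0 passed. The smallest exact p that 4 against 4 mice allow is 0.029, so a claudin that differed alone could not have passed after adjustment over the 9.

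**Figure D4:**
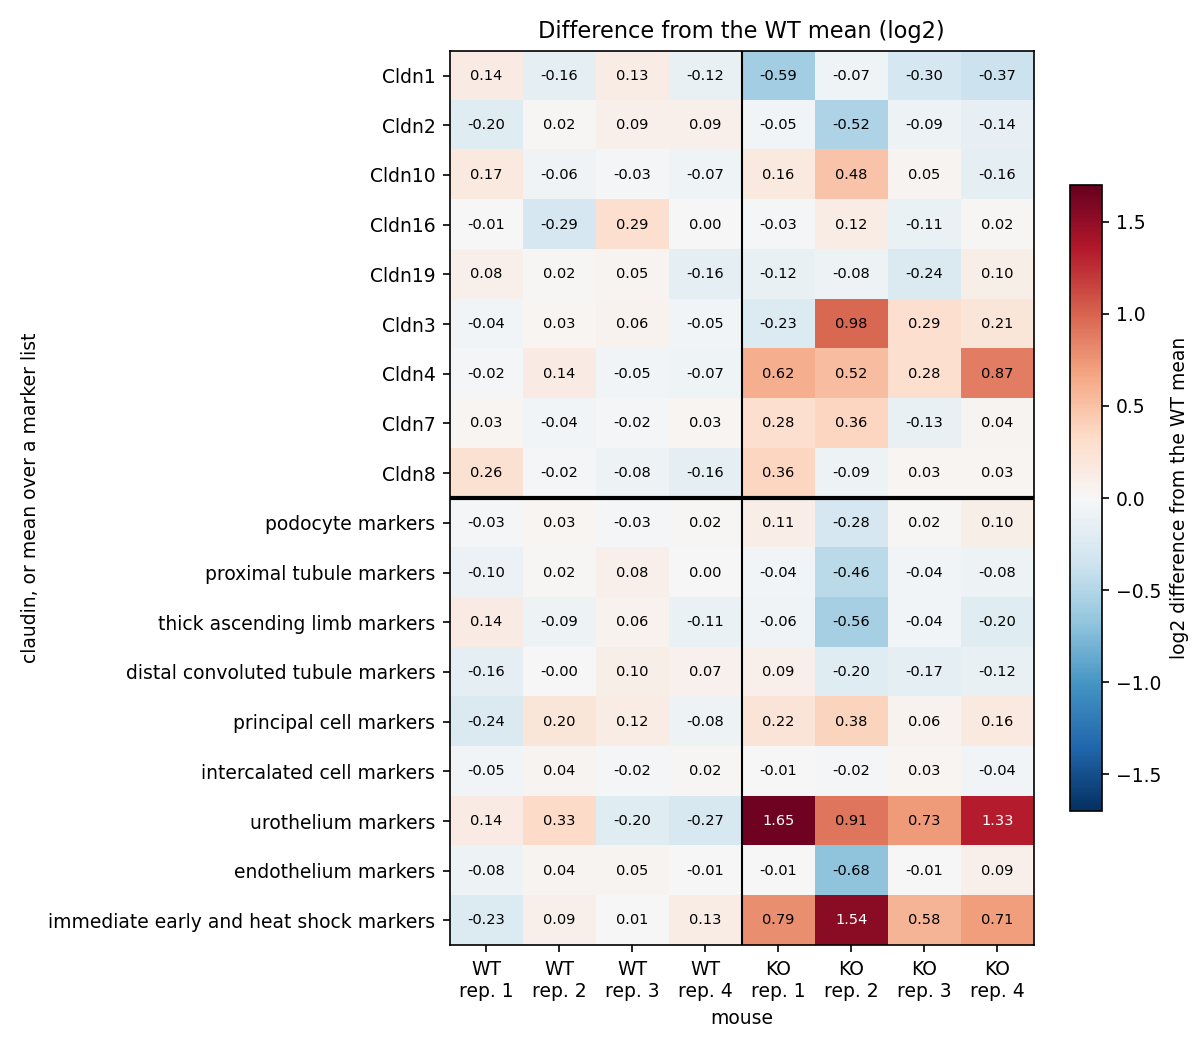
Log2 difference from the WT mean in each of the 8 mice (columns) for 9 claudins (upper rows) and for the mean of each marker list (lower rows), red above and blue below the WT mean. KO replicate 2 has the largest departures of Cldn2 (-0.52), Cldn3 (0.98) and Cldn10 (0.48), beside low proximal tubule (-0.46), thick ascending limb (-0.56) and endothelium (-0.68) lists.

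Ratios between claudins that share a segment or a channel were taken within each mouse, which removes the scaling between libraries. The ratio of Cldn4 to Cldn8 in FPKM was 0.475, 0.661, 0.602 and 0.627 in WT and 0.723, 0.933, 0.712 and 1.09 in KO. All 4 KO ratios were above the WT ratios. On the log2(scaled FPKM + 1) scale the difference was 0.49, at the smallest p that 4 against 4 allows (exact permutation, two-sided, p = 0.029), which becomes 0.11 after adjustment over the 4 pairs. A pair that differed alone could therefore not have passed, however far apart its groups. The difference was 0.38 to 0.57 with any 1 mouse left out, and 0.45 without KO replicate 2.

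The ratio of Cldn16 to Cldn19 was 0.872 ± 0.174 in WT and 0.923 ± 0.0872 in KO (SD, n = 4). This ratio of partners in 1 channel overlapped between the groups (exact permutation p = 0.63), and on the log2 scale the difference was 0.08, or 0.04 without KO replicate 2. Cldn2 to Cldn10 stood at 3.64 ± 0.576 and 2.96 ± 0.819, with 1.78 in KO replicate 2 (exact permutation p = 0.29, adjusted p = 0.57). The log2 difference of -0.33 for that pair was -0.11 without KO replicate 2. Cldn3 to Cldn7 stood at 0.751 ± 0.0488 and 0.898 ± 0.295 (exact permutation p = 0.49, adjusted p = 0.63), and ran from 0.509 in KO replicate 1 to 1.2 in KO replicate 2. Its log2 difference of 0.18 was 0.03 without that mouse. The SD of this last ratio in KO was several times that in WT.

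**Figure D5:**
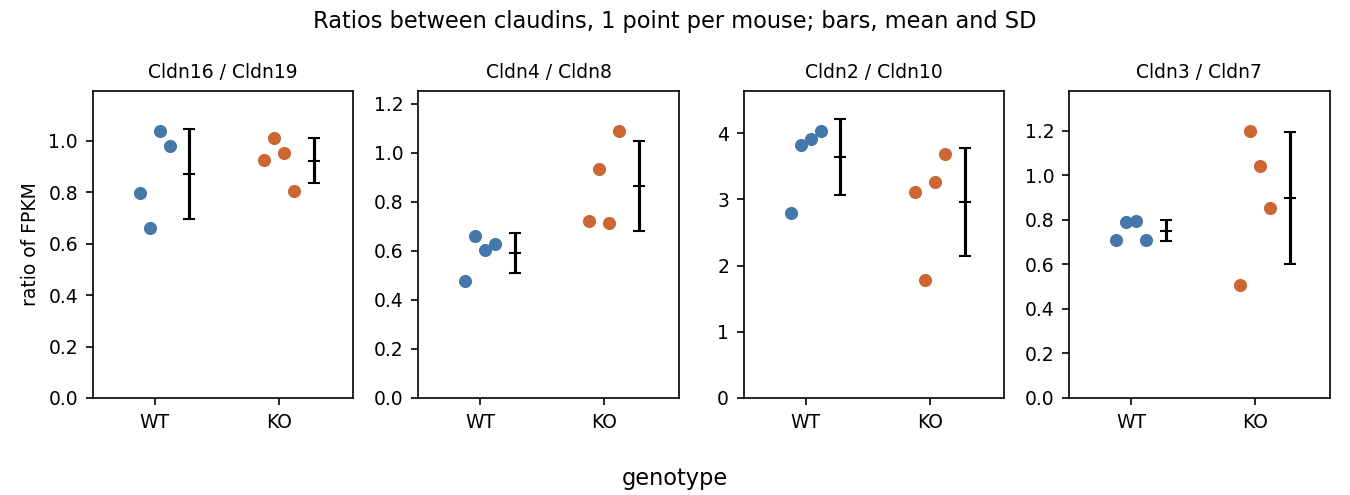
Ratio of FPKM within each mouse for 4 pairs of claudins, WT in blue and KO in orange, with mean and SD as bars. The Cldn4 to Cldn8 ratio is 0.475 to 0.661 in WT and 0.712 to 1.09 in KO, and the other 3 pairs overlap.

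Among the 16 other names beginning with Cldn in the table, 4 reached 1 FPKM and were tested, and 0 passed. The row named Cldn25 carries the identifier of Cldnd1 and that named Cldn26 the identifier of Tmem114 in GENCODE M21, so neither is a claudin by current names. Cldn12 had the lowest p, with means of 27.4 ± 1.22 FPKM (WT) and 22 ± 3.45 FPKM (KO) and groups that did not overlap (log2 fold change -0.30 ± 0.10, limma adjusted p = 0.69). Of all genes tested, 3.01% had KO below WT without overlap as deposited. KO replicate 2 had the lowest value of Cldn12, 16.8 FPKM, and without that mouse the KO mean of Cldn12 was 23.7 ± 0.0865 (SD, n = 3). Among the claudins only Cldn2 and Cldn10 had higher WT means. Cldn5, the claudin of endothelium, was at 9.59 ± 1.03 and 11.2 ± 2.47 FPKM (limma adjusted p = 0.86). Its highest value, 14.9 FPKM in KO replicate 2, came where the mean of 4 endothelial markers (Pecam1, Cdh5, Kdr and Emcn) was lowest.

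Of 26 junction partners of claudins (scaffolds, occludin-like proteins, polarity and regulatory genes) all were tested, 0 passed, and 8 fold changes were above 0 and 18 below. Their median log2 fold change was -0.04, beside -0.01 over all genes tested. Tjp3, a scaffold that links claudins to actin, had the lowest p, with means of 7.24 ± 0.3 FPKM (WT) and 9 ± 0.656 FPKM (KO) and no overlap (log2 fold change 0.30 ± 0.09, limma adjusted p = 0.58). Prkci, a kinase of the polarity complex, was next at 8.67 ± 1.04 and 7.34 ± 0.933 FPKM (limma adjusted p = 0.83). Jam3, and Marveld2 on the deposited scale only, also had groups without overlap, with KO lower. As deposited, 2.29% of all genes tested had KO higher without overlap and 3.01% had KO lower.

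The genes most like the claudins from mouse to mouse were sought after each genotype's mean was subtracted, over the 8 mice on the log2 scale. For the mean of Cldn10, Cldn16 and Cldn19 these were Spats2l, Sec22a and Alkbh3 (Pearson r of 0.99, 0.98 and 0.97, Spearman rho of 0.98, 0.88 and 0.98). For the mean of Cldn3, Cldn4, Cldn7 and Cldn8 they were Tppp3, Tsfm and Hoxb9 (Pearson r of 0.97, 0.95 and 0.95, Spearman rho of 0.90, 0.81 and 0.79). Claudins and genes with clone-style names (such as Gm, Rik or numeric ones) were left out first. The genes named are the highest of the tested genes that remained, and carry no test. In each case over 30 of the remaining genes had an r of at least 0.9. Without KO replicate 2 the 6 values of r lay between 0.90 and 0.99.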

How the data were processed

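Whole kidneys of 8 mice were profiled, 1 library per mouse. The authors' single table gives each mouse its own column, and its header names no unit. The deposited values were treated as FPKM, because the low values of each library were whole multiples of a step that depended on gene length. Tools named in the submitters' processing notes include STAR 2.5, HTSeq 0.6.1 and CASAVA, beside build mm10. What each did, the annotation release and whether strand was counted is not given in the sources used here. Columns were matched to mice by title, and groups come from the genotype label.

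Library totals and reads per gene were recovered from the FPKM steps, with gene lengths fitted where the GENCODE M21 exon length gave no whole reads. All 22945 genes above 0 came out whole within 0.002 reads, and 0% of 500 control genes did with totals shifted by up to 0.1%. The reads served for scaling (trimmed means of M values), for counting error and for limma-voom. The main test was limma 3.58.1 (R 4.3.3, trend and robust options, statmod 1.5.0) on log2(scaled FPKM + 1), for genes averaging 1 FPKM or more, with Benjamini-Hochberg adjustment at 0.05 over all genes tested. Fold changes on this scale understate those of low genes. Ratios were compared by exact permutation tests over mice. The procedure was tested on simulated data with a common spread for all genes. No simulated library stood apart as KO replicate 2 did, so the simulation does not cover that feature. Alternatives were other scalings, filters and pseudocounts, limma-voom, array weights and leaving out each mouse. Comparisons planned with Cldn14 were left out, as it had 0 reads in WT.

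The claudins, the marker lists and the tests were chosen with earlier results of these data known. Genes named beside the 10 claudins are C1qtnf1, the 2 with the lowest p among the other claudins and among junction partners when none passed, segment markers, and the 3 genes most like each of 2 claudin groups over the 8 mice. Other genes named were chosen after their values were seen. A marker list that was planned is not reported here.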

Additional observations from a re-analysis of the deposited data

Results flagged for a closer look

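In each group of 4 mice the highest or lowest value was compared with the rest, and 4 of 44 groups examined had a value whose gap to the others exceeded Dixon's 95% critical value for 4 samples. About 1 in 20 groups would by chance, here 2.2. All 4 were in WT. Cldn10 was at 72.1 FPKM in WT replicate 1 against 57.7 to 58.7 in the other WT mice, and the log2 difference of Cldn2 less Cldn10 was 1.47 in the same mouse against 1.92 or more. Cldn3 was at 8.28 FPKM in WT replicate 4 against 8.81 to 8.88. Cldn10 less the thick ascending limb markers was at -0.35 in WT replicate 3 against -0.23 to -0.21. KO replicate 2, which had the extreme KO value of Cldn2, Cldn3 and Cldn10, did not exceed the critical value in any of the 44.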

How the results depend on the processing

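No claudin was called under any of the 7 other settings or with any 1 mouse left out, and Cldn1, Cldn2, Cldn3, Cldn4, Cldn7, Cldn10 and Cldn19 kept their direction in all of these. Cldn16 changed sign, but only below the digits printed, with median-of-ratios scaling (0.00) and with a pseudocount of 0.1 (0.00), and ran from -0.10 to 0.10 with a mouse left out. Cldn8 ran from -0.01 (without KO replicate 1) to 0.17. The adjusted p of Cldn4 was 0.095 with array weights and at most 0.42 in the other settings. The counts of 2 higher and 3 lower genes became 30 and 29 with array weights, and ran from 2 to 16 and from 1 to 12 with a mouse left out, the highest without KO replicate 3 and without KO replicate 2. Other segment lists were tried after the data were seen. Against distal convoluted tubule markers Cldn7 differed by 0.24 and Cldn8 by 0.18, against thick ascending limb markers Cldn3 by 0.53, and against urothelium markers Cldn4 by -0.58. Less thick ascending limb markers, Cldn3 was at -1.4 in KO replicate 2, from -3.11 to -2.53 in the rest of KO and from -3.12 to -2.81 in WT. No paired analysis was possible because the groups share no replicate number in the labels, whose mouse numbers all differ and tie no KO mouse to a WT mouse. Less principal cell markers, Cldn3 (-0.06 to 0.29), Cldn7 (-0.15 to 0.02) and Cldn8 (-0.21 to 0.04) changed sign with a mouse left out, as did Cldn16 less Cldn19 (-0.02 to 0.16). For the comparisons made by exact tests, only values were compared with a mouse left out, and no p was computed there. Cldn14, at 0 to 3 reads per library, is limited by depth.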

Other observations

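Some claudins below 1 FPKM differed widely among the KO mice, and the genes in this paragraph were chosen after their values were seen. Cldn11, known from myelin and from Sertoli cells of the testis, stood at 55 reads for KO replicate 1 and 118 reads for KO replicate 4. The rest of KO had 2 each and WT had 1 to 7. That is 1.67 and 3.21 FPKM against at most 0.205 FPKM in the other 6 mice. Cldn23 was also highest in these KO mice, with 10 and 13 reads against 1 to 6 in the others. KO replicates 1 and 4 were the mice with the highest urothelium lists (1.65 and 1.33 on the log2 scale) and the highest Cldn4. Cldn22 averaged 0.781 ± 0.0868 FPKM (WT) and 0.53 ± 0.157 FPKM (KO), and Cldn9 0.268 ± 0.0527 and 0.465 ± 0.121 FPKM, both without overlap as deposited and both at 6 to 18 reads per library. None of these was tested with the filter on low values. The shares of genes without overlap given above cover only genes past that filter, so no share stands beside Cldn22 and Cldn9.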
